A study of Mus musculus with 4 samples.

Results

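Leptin (Lep), resistin (Retn), adipsin (Cfd) and uncoupling protein 1 (Ucp1), all known as products of fat cells, were measured by quantitative PCR in whole lungs of p16-/- and p16+/+ mice. The mice breathed room air (RA) or cigarette smoke (CS). The 4 genes were taken from the 89 of an insulin signaling array as a list of adipokines plus the heat-making Ucp1, by name, with earlier results of these data known. The array holds 84 target genes and 5 reference genes, and 15 lungs had a column of their own, 3 of p16-/- RA and 4 each of p16+/+ RA, p16-/- CS and p16+/+ CS.

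The p16-/- mice carry the Cdkn2a tm3.1Nesh allele, also called p16Luc, in which luciferase sits behind the p16 promoter and p16 itself is lost, and per the methods they came from the NCI repository. The p16+/+ mice were wild-type B6(Cg)-Tyrc-2J/J from The Jackson Laboratory, and both lines carry the albino Tyr c-2J allele. The labels name Jackson mice for all samples, so the source of the p16-/- mice is not settled, and if the methods hold, genotype and colony of origin cannot be told apart. Per the labels, RA mice were 24 weeks old, and CS mice were 8 weeks old at the start and had 16 weeks of smoke. All were female per the methods. RNA came from whole lobes, so that fewer cells of a type and less RNA per cell cannot be told apart, and nothing in the sources used here says whether the lungs of a group were prepared or run on 1 day. Cdkn2a, adiponectin and markers of lung cells are not on the array, so neither the genotype nor the tissue could be checked on it.

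Leptin, resistin and adipsin are proteins that mouse white fat cells release into the blood. Leptin reports fat stores to the brain, resistin is known in mice for opposing insulin action, and adipsin is complement factor D, the serine protease that cuts factor B to start the alternative complement pathway. UCP1 is the proton carrier of the inner mitochondrial membrane that lets brown fat cells turn fuel into heat. In the rat lung, lipid-laden fibroblasts of the alveolar wall are known to make leptin.

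The stretches just before the annotated starts of the 4 genes are shown to place them in the genome and to show where a fat cell motif and a core promoter motif occur (RefSeq, GRCm38.p6, 120 bases each, 5′ to 3′ on the plus strand, on which all 4 genes lie). Capitals mark 2 motifs searched on both strands, the C/EBP palindrome TTGCGCAA and the TATA box core TATAA, whose forward and reverse matches overlap in the capitals TTATAA.
Lep, chr6:29060101-29060220, plus strand: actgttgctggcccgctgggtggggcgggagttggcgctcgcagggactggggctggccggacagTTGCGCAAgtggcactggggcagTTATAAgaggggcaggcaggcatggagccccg
Retn, chr8:3655650-3655769, plus strand: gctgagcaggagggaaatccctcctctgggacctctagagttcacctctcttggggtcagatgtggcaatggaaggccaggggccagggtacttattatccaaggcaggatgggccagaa
Ucp1, chr8:83290228-83290347, plus strand: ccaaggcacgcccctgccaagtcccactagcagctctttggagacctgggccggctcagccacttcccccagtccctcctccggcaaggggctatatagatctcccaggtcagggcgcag
Cfd, chr10:79890733-79890852, plus strand: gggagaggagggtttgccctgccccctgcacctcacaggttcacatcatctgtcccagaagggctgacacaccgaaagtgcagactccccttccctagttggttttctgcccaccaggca

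Among the 4 windows only that of Lep held a match to either of these exact strings. Other spellings of a TATA box were not searched for, and the Ucp1 window holds the letters tatata near its end. Its TTGCGCAA begins at -55 and its TTATAA at -32 from the start. TATAA was found in 11.8% of 32851 such windows and TTGCGCAA in 0.0822% of them, 27 windows in all. A match is a string of letters and was not tested as a site. C/EBP beta, a factor that binds such palindromes, was itself on the array as Cebpb and is described below.

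Each value below is a CT, the cycle at which a well's signal crosses the threshold, so that a later CT means less cDNA. It is given mostly as -ΔCT, the mean CT of the 5 reference genes (Actb, B2m, Gapdh, Gusb, Hsp90ab1) minus the CT of the gene, on a log2 scale where higher means more RNA. One p16+/+ RA lung, taken as lung 1 although the table alone does not say which, lacked the CTs of Gusb and Hsp90ab1, which were imputed, so its reference mean and every value set against the p16+/+ RA group rest on that step. Since primers differ between genes, -ΔCT ranks lungs for 1 gene and not genes against each other. The median CT of the 84 targets was 27.27 to 27.9 for p16-/- and 29.43 to 30.77 for p16+/+ in RA, and 26.48 to 27.75 for p16-/- and 28.19 to 31.71 for p16+/+ in CS. The reference gene Gapdh moved with genotype too, at 21.1 ± 0.48 cycles for p16-/- (n = 3) and 25.6 ± 0.71 for p16+/+ (n = 4) in RA, and at 21.4 ± 1.58 for p16-/- and 25.1 ± 1.93 for p16+/+ in CS (SD, n = 4 each). The part of Gapdh in the results below was not separated from genotype, and the calls of Retn and Cfd are therefore given with and without it. Other reference genes differed too, by less. In cycles, p16-/- minus p16+/+, Actb was at -1.79 in RA, with groups apart, and at -0.80 in CS, with overlap. Hsp90ab1 was at 0.88 in RA and 0.95 in CS, and B2m at 0.74 and 0.26, all with overlap. Leaving out Gapdh thus does not leave a reference known to be free of genotype.

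Retn was lower and Cfd was higher in p16-/- lungs, each in 1 of the 2 exposures by the fit across all 84 targets. In RA, 1 of the 4 genes fell, Retn, where 5.95% of the 84 targets were called lower and 28.6% higher. In CS, 1 of the 4 rose, Cfd, where 38.1% were called higher and 1.19% lower. The change of Ucp1 in RA was -3.22 and did not pass the adjusted threshold, and the groups overlapped for Lep in both exposures. Taken over the 4 genes the median was -1.78 for RA and -0.61 for CS, against 0.90 and 1.46 over all 84 targets. The array-wide median is not matched for place on the plate, which is described further below. Retn and Ucp1 sit in plate column 11 and Lep in column 12. The other targets of these columns had medians of -0.07 and -2.38 in RA and -0.10 and -0.76 in CS. Those of column 3, which holds Cfd, had 1.95 in RA and 2.16 in CS.

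**Figure D1:**
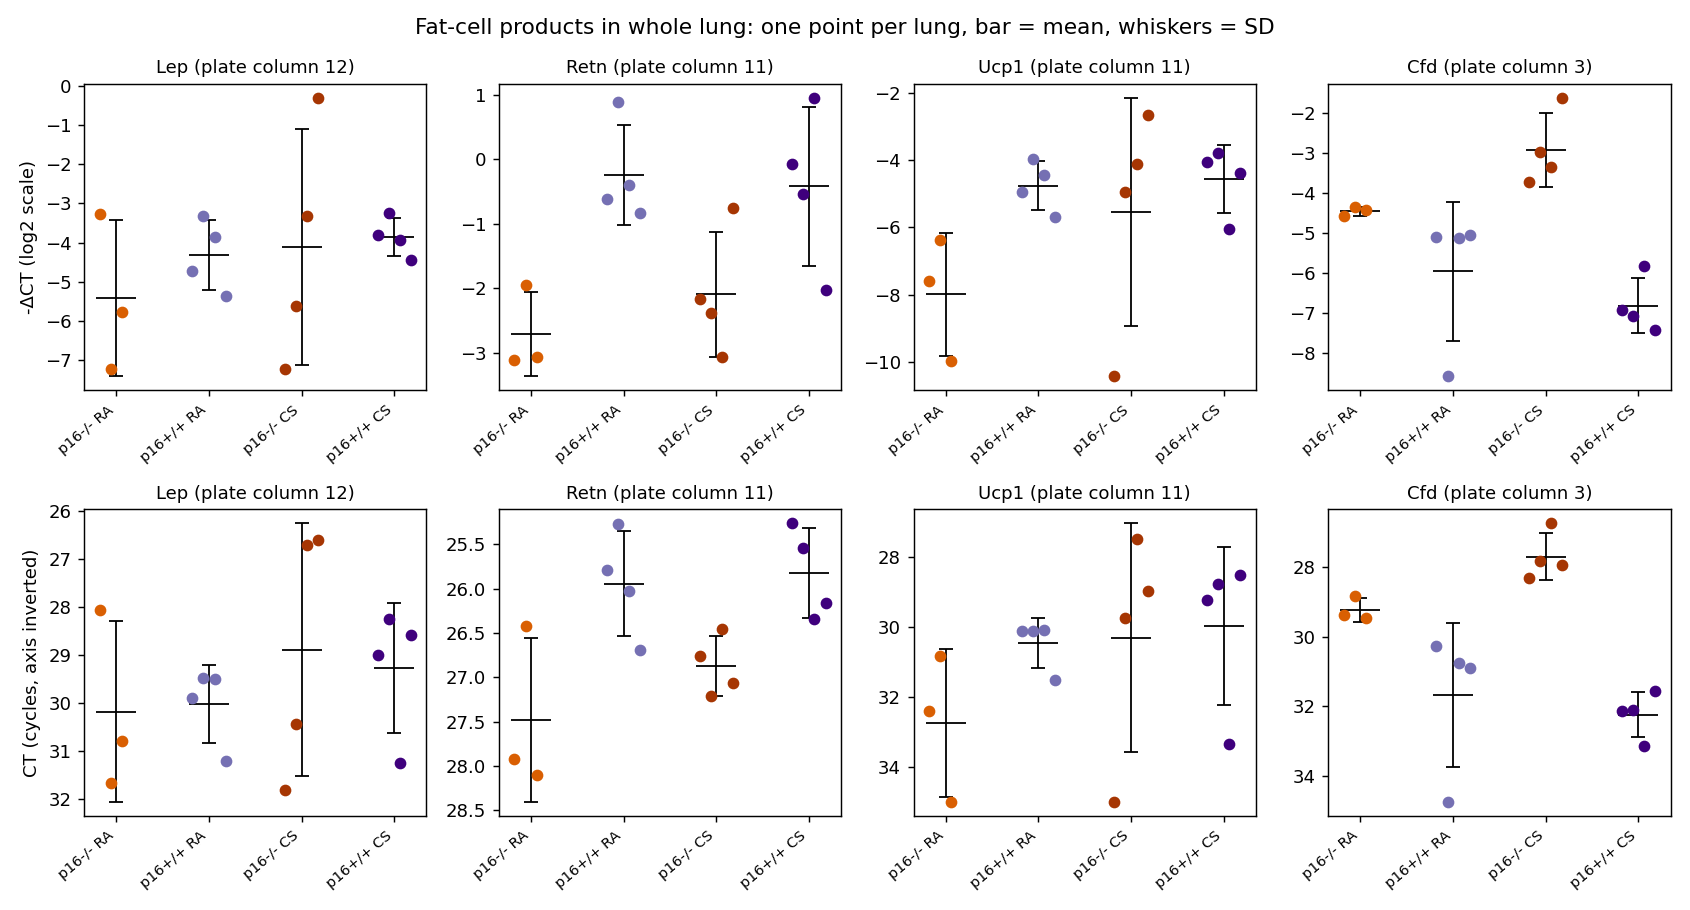
Level of Lep, Retn, Ucp1 and Cfd in each lung, as -ΔCT on a log2 scale in the upper row and as CT in cycles on an inverted axis in the lower row, so that up means more RNA in both. Points are lungs, bars are means and whiskers SD (n = 3 for p16-/- RA, n = 4 for the other groups). Retn lies lower in the p16-/- groups, Cfd lies higher in them, and Lep and Ucp1 spread widest in p16-/- CS lungs.

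Resistin separated the genotypes in RA. The -ΔCT of Retn was -3.12, -1.95 and -3.07 in the 3 p16-/- lungs, against -0.61, 0.89, -0.40 and -0.84 in the 4 p16+/+ lungs. Each p16-/- lung was below each p16+/+ lung. The means were -2.71 ± 0.66 in p16-/- RA lungs and -0.24 ± 0.77 in p16+/+ RA lungs (SD, n = 3 and 4), a change of -2.47 (SE 0.77, 95% interval -4.11 to -0.84), which is 5.55-fold lower in p16-/- lungs, with a limma adjusted p of 0.022. An exact permutation test (two-sided, as all of them here) had p = 0.0286, the smallest that 3 lungs against 4 allow. Groups that did not overlap with p16-/- lower were seen for 7.14% of the targets. The Retn call was lost without p16-/- RA lung 1 (-2.27, adjusted p = 0.066), without p16-/- RA lung 3 (-2.30, adjusted p = 0.097) and without p16+/+ RA lung 2 (-2.12, adjusted p = 0.069).

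Under CS the 2 genotypes overlapped for Retn. Its -ΔCT was -2.17, -2.39, -3.06 and -0.75 in p16-/- CS lungs, against -0.08, -0.53, 0.96 and -2.02 in p16+/+ CS lungs. The overlap came from 1 pair of lungs, p16-/- lung 4 lying above p16+/+ lung 4. By CT the order of these 2 was the other way, with Retn at 27.1 cycles in p16-/- lung 4 and 26.2 in p16+/+ lung 4. Their reference means were 26.3 and 24.1 cycles. The change of -1.68 (SE 0.71, 95% interval -3.19 to -0.16) had a limma adjusted p of 0.074 and an exact permutation p of 0.0571, and it passed without p16-/- CS lung 4 (-2.12, adjusted p = 0.022) or without p16+/+ CS lung 4 (-2.21, adjusted p = 0.023). Whether the genotype change differed between RA and CS was tested directly, and for Retn the difference was 0.80 (SE 1.05, 95% interval -1.44 to 3.03, adjusted p = 0.99), so the missed threshold in CS does not set the exposures apart.

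Retn has close relatives in the mouse genome, Retnla, Retnlb and Retnlg, and whether the primers of this well tell them apart is nowhere stated in the study's text. Its wells crossed the threshold early, at 25.3 to 28.1 cycles in all 15 lungs, well short of the limit of 35 set for late wells. As CT, without any reference gene, Retn averaged 27.5 ± 0.92 cycles for p16-/- and 25.9 ± 0.59 for p16+/+ in RA, with 1 p16-/- lung inside the p16+/+ range (exact permutation p = 0.0857, n = 3 and 4). It averaged 26.9 ± 0.34 cycles in p16-/- CS lungs and 25.8 ± 0.51 in p16+/+ CS lungs, and there the groups did not overlap (exact permutation p = 0.0286, n = 4 each).

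Adipsin ran the other way. In CS, the -ΔCT of Cfd was -3.73, -2.99, -3.36 and -1.62 in p16-/- lungs, against -6.94, -7.08, -5.83 and -7.43 in p16+/+ lungs. All 4 p16-/- lungs were above all 4 p16+/+ lungs, with a gap of over 2 log2 units between the nearest. The means were -2.93 ± 0.92 in p16-/- CS lungs and -6.82 ± 0.69 in p16+/+ CS lungs (SD, n = 4 each), a change of 3.89 (SE 0.78, 95% interval 2.24 to 5.55) or 14.9-fold, with a limma adjusted p of 0.0014. The exact permutation p was 0.0286, the smallest that 4 lungs against 4 allow. Only 3 of the 84 targets had a larger rise, Cfd ranking 81 from the lowest, and 35.7% of the targets had groups that did not overlap with p16-/- higher. The change stayed past the threshold with any 1 lung left out, between 3.46 and 4.22. It was lost with Gapdh alone as reference (0.80, adjusted p = 0.53), with the median of the 84 targets (1.90, adjusted p = 0.052) and with a CT limit of 30 (1.66, adjusted p = 0.085), and it was 1.93 against the other targets of its plate column, as described below.

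In RA the p16-/- lungs were close together for Cfd, at -4.59, -4.37 and -4.44. The p16+/+ RA lungs were at -5.09, -8.58, -5.14 and -5.05, so 3 of the 4 lay just below the p16-/- lungs and lung 2 far below the rest. The groups did not overlap, as for 36.9% of targets with p16-/- higher, yet the change of 1.5 (SE 0.84, 95% interval -0.28 to 3.29) had a limma adjusted p of 0.196 and an exact permutation p of 0.114. Without p16+/+ RA lung 2 the Cfd change was 0.61 (adjusted p = 0.61).

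For Cfd, smoke separated the p16-/- lungs without passing the fit. Among p16-/- lungs its -ΔCT averaged -2.93 ± 0.92 in CS (n = 4) and -4.46 ± 0.11 in RA (n = 3), and the 2 groups of lungs did not overlap. It was the 1 target of 84 (1.19%) for which that was so between p16-/- CS and p16-/- RA lungs. The change of 1.54 (SE 0.84, 95% interval -0.25 to 3.32) did not pass over the 84 targets (limma adjusted p = 0.79, exact permutation p = 0.0571). As CT, Cfd averaged 27.7 ± 0.67 cycles in p16-/- CS lungs and 29.2 ± 0.35 in p16-/- RA lungs, again apart (exact permutation p = 0.0286). The share of the 84 targets apart on CT was not counted here either. In p16+/+ lungs it averaged -6.82 ± 0.69 in CS and -5.97 ± 1.75 in RA, a change of -0.85 (SE 0.78, adjusted p = 0.98). The smoke change was thus 2.39 higher in p16-/- than in p16+/+ lungs (SE 1.15, 95% interval -0.04 to 4.82), with an unadjusted p of 0.053 and an adjusted p of 0.99 in limma. No target passed for this difference, none had an unadjusted p under 0.05, and it uses the same 15 lungs as the other comparisons.

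The order of the groups differed between these 2 secreted proteins. Retn ran p16-/- RA, p16-/- CS, p16+/+ CS and p16+/+ RA from low to high, and each group overlapped its neighbours in that order. Cfd ran p16+/+ CS, p16+/+ RA, p16-/- RA and p16-/- CS, in which the neighbours p16+/+ CS and RA overlapped and the other neighbours did not, although neither of those 2 steps passed the adjusted threshold. Taking the CT of Cfd minus the CT of Retn in the same lung removes the reference genes altogether, and gave 1.37 to 2.41 cycles for p16-/- and 4.22 to 9.47 for p16+/+ in RA, and 0.29 to 1.56 for p16-/- and 5.40 to 6.86 for p16+/+ in CS. The 7 p16-/- lungs and the 8 p16+/+ lungs were fully apart on this difference, a pair chosen after both changes were known and given as a description. The pair sets plate column 3 against plate column 11, whose other targets already differed, with median genotype changes of 1.95 against -0.07 in RA and 2.16 against -0.10 in CS.

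**Figure D2:**
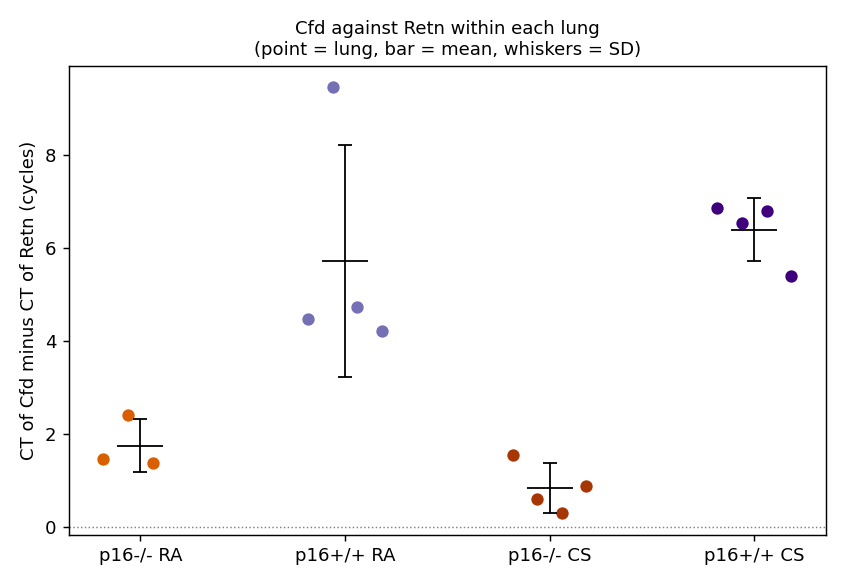
CT of Cfd minus CT of Retn within each lung, in cycles, by group (points are lungs, bars means, whiskers SD, n = 3 for p16-/- RA and 4 for the others). A lower value means more Cfd per Retn. The p16-/- lungs lie between 0.29 and 2.41 cycles and the p16+/+ lungs between 4.22 and 9.47, and the 2 genes sit in plate columns whose other targets also differed.

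Ucp1 separated the genotypes in RA without passing the fit. In RA its -ΔCT was -7.59, -6.38 and -9.96 in the 3 p16-/- lungs, against -4.94, -3.96, -4.46 and -5.68 in the 4 p16+/+ lungs. The groups did not overlap, as for 7.14% of the 84 targets with p16-/- lower. The change of -3.22 (SE 1.38, 95% interval -6.15 to -0.29) had an exact permutation p of 0.0286 and a limma adjusted p of 0.081, so it was not called. The lowest p16-/- lung, lung 3, had a CT of 35.7 that was set to 35, which makes its value an upper bound. As CT, Ucp1 averaged 32.7 ± 2.10 cycles for p16-/- and 30.5 ± 0.71 for p16+/+ in RA, with overlap (exact permutation p = 0.0857, n = 3 and 4).

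Under CS the 4 p16-/- lungs no longer held together for Ucp1. Their -ΔCT was -10.4, -4.94, -4.11 and -2.67, against -4.04, -3.78, -6.03 and -4.39 in p16+/+ CS lungs. Lung 1 of p16-/- CS had a CT of 35.2 set to 35, so that its value, like that of p16-/- RA lung 3, is an upper bound and the 2 have no order. On -ΔCT, lung 4 of p16-/- CS lay above every other lung. Its reference mean was late, at 26.3 cycles against 23.4 to 24.8 in the other p16-/- CS lungs. By CT its Ucp1, at 29.0 cycles, was not the earliest, and p16-/- CS lung 3 was at 27.5. The change of -0.97 (SE 1.28, 95% interval -3.69 to 1.75, adjusted p = 0.58) turned to 0.65 (adjusted p = 0.53) without p16-/- CS lung 1. That lung also set other calls. Without it, Ucp1 passed as lower with p16-/- in RA (-3.22, adjusted p = 0.012) and as higher with CS in p16-/- lungs (4.07, adjusted p = 0.038). With all lungs, its CS minus RA change in p16-/- lungs was 2.44 (SE 1.38, 95% interval -0.49 to 5.38, adjusted p = 0.79). In p16+/+ lungs its CS and RA means were -4.56 ± 1.01 and -4.76 ± 0.73 (n = 4 each), a change of 0.20 (SE 1.28, adjusted p = 0.98).

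Lep did not separate the groups, and its lungs spread more in p16-/- mice. In RA its -ΔCT was -3.26, -7.21 and -5.76 in the 3 p16-/- lungs, against -4.73, -3.32, -3.87 and -5.36 in the 4 p16+/+ lungs. It was -7.22, -5.60, -3.32 and -0.30 in p16-/- CS lungs, against -3.81, -3.24, -3.94 and -4.44 in p16+/+ CS lungs. The groups overlapped in both exposures. On -ΔCT the SD of Lep was 2.0 among the p16-/- and 0.90 among the p16+/+ lungs in RA. In CS it was 3.0 among the p16-/- and 0.49 among the p16+/+ lungs. As CT the contrast in CS was smaller, with an SD of 2.63 cycles in p16-/- and 1.35 in p16+/+ lungs. In RA it was 1.88 and 0.82 cycles. Lung 4 of p16-/- CS had the latest reference mean of its group, 26.3 cycles, and its Lep CT of 26.6 was near the 26.7 of lung 3. The spread was not itself tested. The genotype change was -1.10 (SE 1.28, 95% interval -3.81 to 1.62, adjusted p = 0.59) in RA and -0.25 (SE 1.18, 95% interval -2.76 to 2.26, adjusted p = 0.91) in CS. Intervals this wide leave changes of several-fold either way undetected at this number of lungs. From low to high the group means ran p16-/- RA, p16+/+ RA, p16-/- CS and p16+/+ CS for Lep. For Ucp1 the p16-/- RA lungs were lowest and p16-/- CS next, then p16+/+ RA and last p16+/+ CS, and every neighbouring pair in both orders overlapped.

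Smoke moved none of the 4 genes past the threshold. In p16+/+ lungs the CS minus RA changes of Lep, Retn and Ucp1 were 0.46, -0.18 and 0.20 (SE 1.18, 0.71 and 1.28), and in p16-/- lungs those of Lep and Retn were 1.30 and 0.62 (SE 1.28 and 0.77), with adjusted p between 0.79 and 0.98 in limma. Of all 84 targets 0 (0%) passed in either genotype, with 0 at an unadjusted p under 0.05 in p16+/+ lungs and 1 in p16-/- lungs, and the exact permutation test gave 0 in each. The smoke and genotype comparisons share groups of lungs, so these values stand side by side and are not separate evidence.

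How the change depends on the well was read for all 4 genes, because the median change differed between the columns of the well plate. A plate column is the well number from 1 to 12. Cfd sits in column 3, Retn and Ucp1 in column 11 and Lep in column 12. Over the 56 targets of columns 1 to 8 the median genotype change was 1.77 in RA and 2.17 in CS, and over the 28 targets of columns 9 to 12 it was -0.66 and -0.03. The 6 other targets of column 3 had a median of 1.95 in RA and 2.16 in CS, with 3 and 4 of them called higher. The 5 other targets of column 11 had medians of -0.07 and -0.10 with 0 called, and the 6 others of column 12 had -2.38 and -0.76, with 2 called lower in RA. What sets the columns apart was not tested, and gene content and well position cannot be told apart on 1 plate layout.

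**Figure D3:**
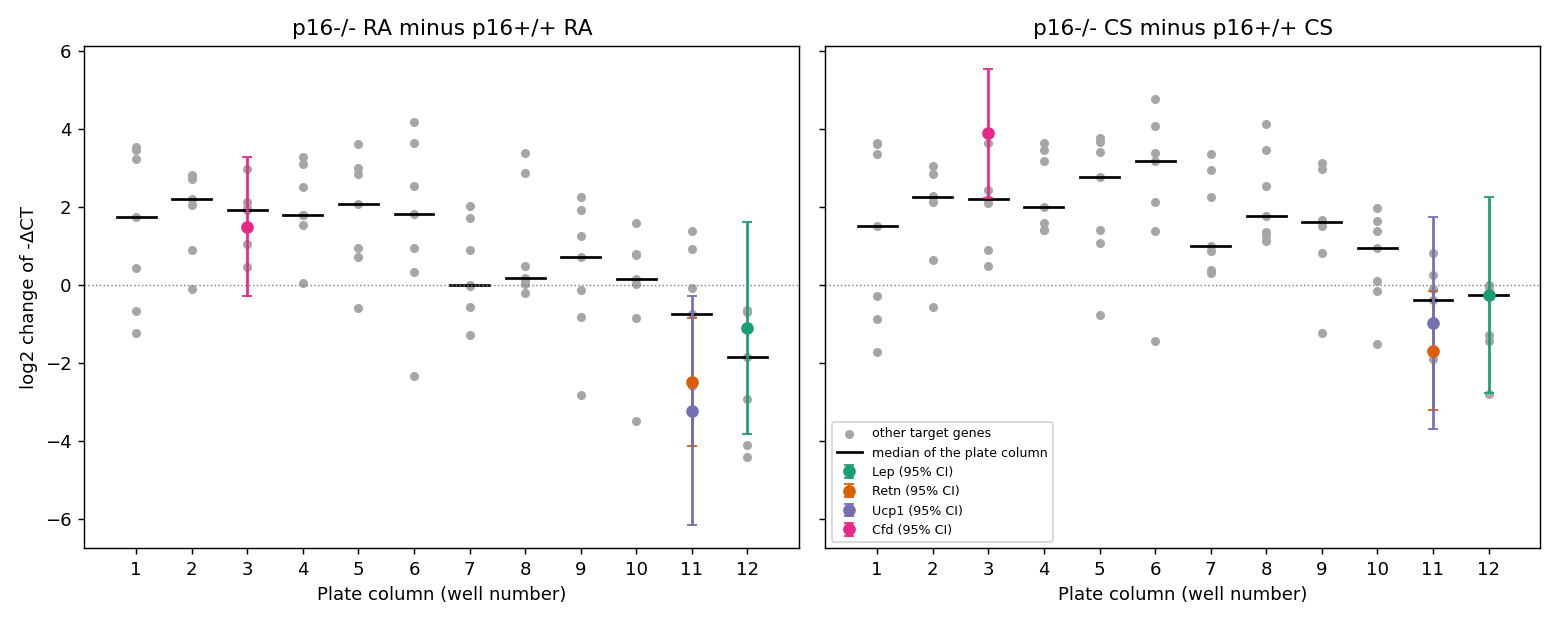
Genotype change of -ΔCT (log2, p16-/- minus p16+/+) for each of the 84 targets against its plate column, in RA on the left and in CS on the right. Grey points are other targets, black bars the median of each column, and coloured points the 4 genes with their 95% intervals. Columns 1 to 8 lie mostly above 0, columns 11 and 12 do not, and Cfd in CS lies above the other targets of its column, while in RA Ucp1 and 1 further target of column 11 lie below Retn.

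Set against the mean CT of the other targets in the same column of the same lung, the picture of the 4 genes changed in part. Cfd was still higher in CS, by 1.93 (SE 0.61, adjusted p = 0.023), with -0.69 ± 0.36 in p16-/- CS lungs and -2.62 ± 0.93 in p16+/+ CS lungs. Its groups did not overlap, as for 19% of targets with p16-/- higher on this scale, where 23.8% were called higher. In RA its difference was -0.25 (SE 0.66, adjusted p = 0.72). Retn was 1.75 below in RA without passing (SE 1.27, change -1.75, adjusted p = 0.29), and Ucp1 passed as lower in RA (-2.63, SE 0.80, adjusted p = 0.021), where 13.1% of targets were called lower, though the lungs overlapped, at -4.89 to -2.12 in p16-/- RA lungs and -2.14 to -0.37 in p16+/+ RA lungs, and the call was lost against the column median (-2.17, adjusted p = 0.066). Lep, in a column whose other targets had a median of -2.38, passed as higher in RA relative to it (1.34, SE 0.51, adjusted p = 0.049), where 26.2% were called higher, though the lungs overlapped, at 0.38 to 1.99 in p16-/- RA lungs and -0.67 to 0.53 in p16+/+ RA lungs. Retn and Ucp1 are each among the other targets of the other, so their values on this scale are linked.

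The choice of reference genes shifts all targets of a lung together. The median genotype change of the 84 targets was -2.63 in RA and -1.63 in CS with Gapdh alone as reference, and 1.78 and 2.23 with the other 4 reference genes, against 0.90 and 1.46 with all 5. With Gapdh alone 0 targets were called higher and 44 lower in RA, and 0 higher and 20 lower in CS. Without Gapdh 32 were higher and 0 lower in RA, and 45 higher and 0 lower in CS. Retn in RA was -6.00 with Gapdh alone and -1.59 without it (adjusted p = 0.11), and stayed negative under all 23 other settings tried. Settings that change only the test cannot move a value, for Retn or the other genes. No Retn CT was late enough for the CT limits tried to move it, so the count of 23 overstates how far its sign was tried. Cfd in CS was 0.80 with Gapdh alone (adjusted p = 0.53) and 4.67 without it, and stayed positive under all 23. Ucp1 in RA stayed negative under all 23, from -6.75 with Gapdh alone, where it passed, to -0.93 with the CT limit at 30. That limit cut every RA well of Ucp1 to 30. The -0.93 is thus the difference of the reference genes and says nothing of Ucp1. Cfd in RA took both signs, -2.03 with Gapdh alone and 2.38 without Gapdh, where it passed (adjusted p = 0.032), and so did Lep.

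**Figure D4:**
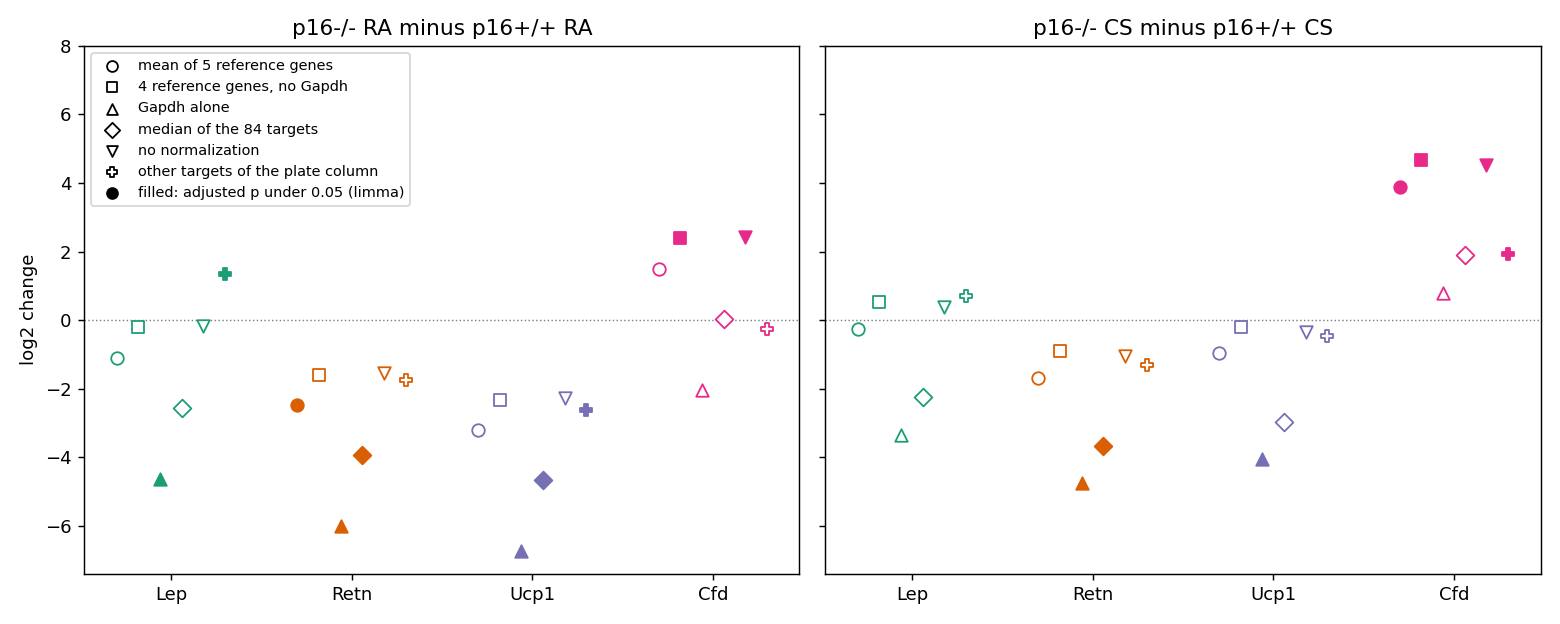
Genotype change (log2, p16-/- minus p16+/+) of the 4 genes under 6 ways of scaling, in RA on the left and CS on the right. Each symbol is a scaling and filled symbols have a limma adjusted p under 0.05. The symbols for Retn lie below 0 and those for Cfd in CS above 0 throughout, between 0.80 and 4.67, and Lep and Cfd in RA lie on both sides of 0.

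Relative to each other the 4 genes did not move as a block. Over the 15 lungs Spearman's rho of -ΔCT was 0.73 between Lep and Ucp1, 0.48 between Retn and Ucp1, 0.26 between Lep and Retn, -0.21 between Lep and Cfd, -0.28 between Cfd and Ucp1 and -0.61 between Retn and Cfd. The lungs come from 4 groups and share their reference mean within a lung, so these are descriptions. The targets most like Lep were Rps6ka1 (0.96), Cbl (0.94) and Fos (0.86), all in its own plate column 12. Those most like Ucp1 were Fbp1 (0.73) in its column 11, Lep and Rps6ka1 (0.71). Retn was most like Hras (0.86) and Vegfa (0.78), both in column 12, and Prkcz (0.77) in column 6, and Cfd was most like Pck2 (0.89), Grb10 (0.88) and Nos2 (0.88), in columns 7, 8 and 5.

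Other genes of the fat cell program were on the array. Of 5 regulators of fat cell formation, 3 rose in p16-/- lungs in RA and 3 in CS, with a median of 2.05 and 2.28, where 28.6% and 38.1% of all targets were called higher. Pparg, the receptor that directs fat cell differentiation, was 2.05 higher in RA (adjusted p = 0.022) and 2.28 in CS (adjusted p = 0.0057). Cebpb, which acts ahead of it, was 2.80 and 3.06 higher, and Aebp1, known in mouse cells as a repressor of adipogenesis, was 3.11 and 3.18 higher. All 3 sit in plate columns 1 to 8, as does Cebpa in column 1, while Srebf1 sits in column 9. Cebpa, which keeps the mature fat cell program going, was at -1.21 and -1.72, and Srebf1, a regulator of fatty acid synthesis genes, at -2.80 and -1.21, and neither passed.

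Of the genes of lipid handling, Acaca, the carboxylase at the entry to fatty acid synthesis, was 3.54 higher in RA (adjusted p = 0.013) and 3.62 higher in CS (adjusted p = 0.0031). Slc27a4, a fatty acid transporter, passed in CS (1.41, adjusted p = 0.049) and was at 0.72 in RA (adjusted p = 0.40). Of the 5 regulators 0 passed for smoke. With Gapdh alone as reference no target was called higher in p16-/- lungs, these included.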

How the data were processed

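The deposited table holds raw CT values (log2 scale, no normalization) from RNA of whole lung lobes reverse transcribed by the authors and run with SYBR Green on a QIAGEN PAMM030 array; baseline and threshold are not given in the sources used here. A second deposited table holds the authors' own comparisons (fold changes and p-values) and was not used. Of 19 CT columns, 15 were lungs and 4 equalled their group's mean and were left out; the study gives more lungs per group. The rows of Gusb and Hsp90ab1 hold 1 cell fewer and were moved by 1 place, which restored the group means. Lung 1 of p16+/+ RA was taken as the one lacking both, and both were filled from its Actb, B2m and Gapdh, so its reference mean (25.18) is imputed; the table alone does not say which p16+/+ RA lung lacks them. CTs blank or over 35 were set to 35 (4 and 14 of the target CTs, and 0 and 2 for the 4 genes). Changes in -ΔCT were tested with limma 3.58.1 in R 4.3.3, with a mean for each of the 4 groups and a shared spread with 11 degrees of freedom left; p-values were adjusted by Benjamini-Hochberg across 84 targets with a threshold of 0.05; exact permutation tests were two-sided, and their adjusted values are over the same 84. The fit was tested on simulated data. Figures used Python 3.11.15 and matplotlib 3.10.9. RefSeq lists each of the 89 symbols. The 4 genes are named in full, and others by lists of fat cell regulators and lipid handling genes and by the 3 highest Spearman correlations; some genes of the lipid list are not reported here. Members and lists were chosen with earlier results of these data known. Labels give 1 record per group and not which lungs are separate animals, so p-values measure the spread between columns.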

Additional observations from a re-analysis of the deposited data

Results flagged for a closer look

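In groups of 4 lungs, the gap of the lowest or highest lung to its nearest neighbour was set against the whole range, for 12 groups on each scale; chance flags about 1 in 20 groups. On -ΔCT 1 group was past the limit and on CT 3 were. Cfd in p16+/+ RA lung 2 was far from the other p16+/+ RA lungs on both scales, with a -ΔCT of -8.58 and a CT of 34.7 cycles. Ucp1 in p16+/+ RA lung 4 had a CT of 31.5 cycles, above the other 3 lungs of that group, and without it the genotype change of Ucp1 in RA was -3.55 (limma adjusted p = 0.081). Ucp1 in p16+/+ CS lung 3 had a CT of 33.3 cycles, and without it the genotype change of Ucp1 in CS was -1.46 (limma adjusted p = 0.42). Both Ucp1 lungs were within the limit on -ΔCT.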

How the results depend on the processing

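Besides leaving out each of 15 lungs, 23 settings were tried, 4 of them added after the data were seen (3 other placements of the missing reference cells, and the plate column median). The number of the 4 genes past the threshold in RA, 1 in the report, was 3 with Gapdh alone, 2 with Actb, B2m and Gapdh, with the median of the 84 targets, with the plate column mean, with the group-mean columns counted as lungs and with the 2 groups fitted alone, and 0 with a CT limit of 30 and with the exact permutation test after adjustment. In CS, 1 in the report, it was 2 with Gapdh alone, without Gusb, without Hsp90ab1, with Actb, B2m and Gapdh, with the group-mean columns and with the plate column median, and 0 with the limit of 30 and the exact test. With 1 lung left out these counts ran from 0 to 2 in RA and 1 to 2 in CS, and from 0 to 1 for p16-/- CS against p16-/- RA.

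Retn in RA lost its call without Gapdh (-1.59), with no normalization (-1.54), with a CT limit of 30 (-2.47), against the plate column mean (-1.75) or median (-1.75), and in the exact test (-2.47, adjusted p = 0.10), and ran from -2.85 to -2.12 with 1 lung left out. Cfd in CS lost its call with Gapdh alone (0.80), with the median of the 84 targets (1.90), with a limit of 30 (1.66) and in the exact test (3.89, adjusted p = 0.073), and ran from 3.46 to 4.22. The limit of 30 altered no Retn CT, so there its call moved only with the other targets of the fit. The same limit cut the Cfd CT of every p16+/+ CS lung, 31.6 to 33.1 cycles, to 30. The cause of the other losses was not tested.

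Signs turned where no call stood in the report. Cfd in RA was -2.03 with Gapdh alone, -0.17 with a limit of 30, and -0.25 and -0.47 against the plate column mean and median. Lep was 1.34 and 1.71 in RA and 0.71 and 1.36 in CS against the plate column mean and median, and in CS 0.52 without Gapdh and 0.38 with no normalization. Against the plate column mean and median, the smoke change in p16+/+ lungs was -0.18 and -0.44 for Lep and -0.064 and -0.10 for Ucp1, that in p16-/- lungs was -0.80 and -0.79 for Lep, and its difference between genotypes was -0.62 and -0.35 for Lep. The smoke change of Retn was 0.12 in p16+/+ lungs with no normalization, and in p16-/- lungs -0.077 with the median of the 84 targets and -0.046 against the plate column mean. With 1 lung left out, the change ran from -1.52 to 0.78 for Lep and from -1.93 to 0.65 for Ucp1 between genotypes in CS, from -0.64 to 0.36 for Retn and from -0.14 to 0.69 for Ucp1 with smoke in p16+/+ lungs, and from -0.43 to 1.92 for the difference in Lep.

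Over all settings the targets called higher numbered 0 to 32 in RA and 0 to 47 in CS, and those lower 0 to 44 and 0 to 20, against 24, 32, 5 and 1 in the report. The lung numbers of the columns name lungs alone, and deviations of same-numbered lungs correlated between -0.67 and 0.56. With lung number as a replicate block Retn in RA was -2.57 (adjusted p = 0.036) and Cfd in CS 3.89 (adjusted p = 0.0023), and no call of the 4 genes changed. The number of lungs, and for Ucp1 CTs near 35, limit what could be detected.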
